A study of Glycine max with 6 samples.

Results

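Tonoplast intrinsic proteins (TIPs) are aquaporins of the vacuolar membrane. They let water, and in some members ammonia, urea or hydrogen peroxide, pass between the cytosol and the vacuole, which fills most of a mature leaf cell. Plasma membrane intrinsic proteins (PIPs) do the corresponding work at the cell surface, so that water entering the vacuole crosses both membranes. In Arabidopsis the TIP1 class (gamma-TIP) is known from the large vacuoles of vegetative cells and from elongating tissue, and the TIP2 class (delta-TIP) also conducts ammonia.

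The 5 soybean TIP genes described here were chosen by their NCBI gene numbers out of 41759 genes in the authors' table. They are TIP1-8 and TIP1-4 of the TIP1 class and TIP2-2, GmTIP2;2 and TIP2-3 of the TIP2 class. Expression was measured by RNA-seq in leaves of 2 genotypes of soybean (Glycine max), HN44 and SN14, grown in a field under natural conditions, with 3 libraries each, numbered 1 to 3. The title of the series sets them apart by water use efficiency; which of them uses water more efficiently, plant age and sampling time are not given in the sources used here. No treatment other than field growth is given for either genotype, and the label that gives it names the plants by codes that match neither HN44 nor SN14. Values are the authors' FPKM (fragments scaled for library size and gene length), so the depth and the counting error behind each value are unknown. Nothing in the labels says that libraries 1 to 3 are separate plants, and p-values here measure no more than the spread among libraries, which may be technical.

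Symbol use differs between these genes, so each is identified by its locus, with NCBI gene number, and positions from the authors' table; no source used here names its genome build. TIP1-8 is LOC100527509 (NCBI gene 100527509, synonyms GmTIP1;2 and GmTIP1;8), on the minus strand of chromosome 19 from 44461993 to 44462883. TIP2-2 is LOC100817754 (NCBI gene 100817754, GmTIP2;6), on the minus strand of chromosome 15 from 1392885 to 1395137. GmTIP2;2 is a different gene in spite of its name, LOC100527333 (NCBI gene 100527333), on the plus strand of chromosome 11 from 2484419 to 2486871. TIP2-3 is LOC100306092 (NCBI gene 100306092, GmTIP2;3 and GmTIP2;5), on the plus strand of chromosome 7 from 1437846 to 1439728. TIP1-4 is LOC100777419 (NCBI gene 100777419, GmTIP1;4 and GmTIP1;5), on the minus strand of chromosome 11 from 10924143 to 10925750. None of the 5 spans overlapped another gene model of the table, and the nearest model lay 647 bases away, beside TIP1-4. Reads shared among similar TIP genes elsewhere in the genome may still have been divided among them.

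The HN44 libraries were compared over 16036 genes with an HN44 mean of at least 5 FPKM that were detected in every HN44 library. Of these, 1919 had more than a 2-fold gap from HN44-1 to HN44-2, and the HN44-3 value lay inside that gap in 1915. Adding HN44-1 and HN44-2 at weights of 0.57 and 0.43 came within 0.06 (median absolute difference on the log2 scale, 16036 genes) of the HN44-3 values. For TIP1-8 that sum gives 311 FPKM where 297 was measured, and for TIP2-2 it gives 32.5 where 30.2 was measured. For TIP2-3 it gives 0.89 against 1.19 and for TIP1-4 1.04 against 0.89, and both genes lie below the 5 FPKM limit of that comparison. GmTIP2;2 was the exception among the 5, with an HN44-3 value of 25.6 FPKM that lay above both HN44-1 and HN44-2 (weighted sum 22.8). HN44 means are therefore those of HN44-1 and HN44-2 (n = 2), and the adjusted p of each tested TIP gene is also given without HN44-3. The leaf label was checked against 11 Rubisco, Rubisco activase and light-harvesting genes, whose summed level was 54794 to 70951 FPKM in HN44 and 73609 to 88702 FPKM in SN14. GY3, for a seed storage globulin and the 1 seed or nodule marker matched, stood at 0.03 to 0.07 FPKM.

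TIP1-8 was the most abundant of the 5 genes in all 6 libraries and was lower on average in HN44. It stood at 154 FPKM in HN44-1, 519.6 in HN44-2 and 297 in HN44-3, and at 1177, 829.8 and 483 FPKM in SN14-1, SN14-2 and SN14-3. The groups overlapped, since HN44-2 lay above SN14-3, and within each genotype the highest library was 3.37 times (HN44) and 2.44 times (SN14) the lowest. By level it ranked from 92nd (SN14-1) to 624th (HN44-1) among all genes of a library. The means were 337 ± 258 FPKM (SD, n = 2) in HN44 and 829.9 ± 347 (SD, n = 3) in SN14. The log2 fold change, HN44 minus SN14 on the log2(FPKM + 1) scale, was -1.43 ± 0.50 (SE; 95% interval -2.61 to -0.25), and it did not pass in limma (adjusted p = 0.131, and 0.356 without HN44-3). Without HN44-3 the 95% interval was -2.92 to 0.006, which takes in 0.

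TIP2-2 was the 1 gene of the 5 whose genotypes did not overlap. It stood at 17.8 FPKM in HN44-1, 52.2 in HN44-2 and 30.2 in HN44-3, and at 92.8, 84.8 and 109 FPKM in SN14-1, SN14-2 and SN14-3. Every HN44 library lay below every SN14 library, which was also so for 10.5% of the 27140 tested genes (2853 genes). In 6335 other tested genes every HN44 library lay above every SN14 library, so a lack of overlap was common. The SN14 libraries were close together, with the highest 1.28 times the lowest, while those of HN44 spread over 2.94 times. The mean was 35.0 ± 24.3 FPKM (SD, n = 2) in HN44 and 95.4 ± 12.1 (SD, n = 3) in SN14, a ratio of 2.73 in favour of SN14. The log2 fold change of -1.61 ± 0.37 (SE; 95% interval -2.48 to -0.74) missed the threshold in limma (adjusted p = 0.0642, and 0.254 without HN44-3). Without HN44-3 the 95% interval was -2.70 to -0.51. TIP2-2 passed in limma when HN44-2 was left out (adjusted p = 0.0311), as did 961 of the 27140 tested genes. That fit leaves out the HN44 library nearest to SN14. For HN44 it rests on HN44-1 and HN44-3 alone, which may not be independent.

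**Figure D1:**
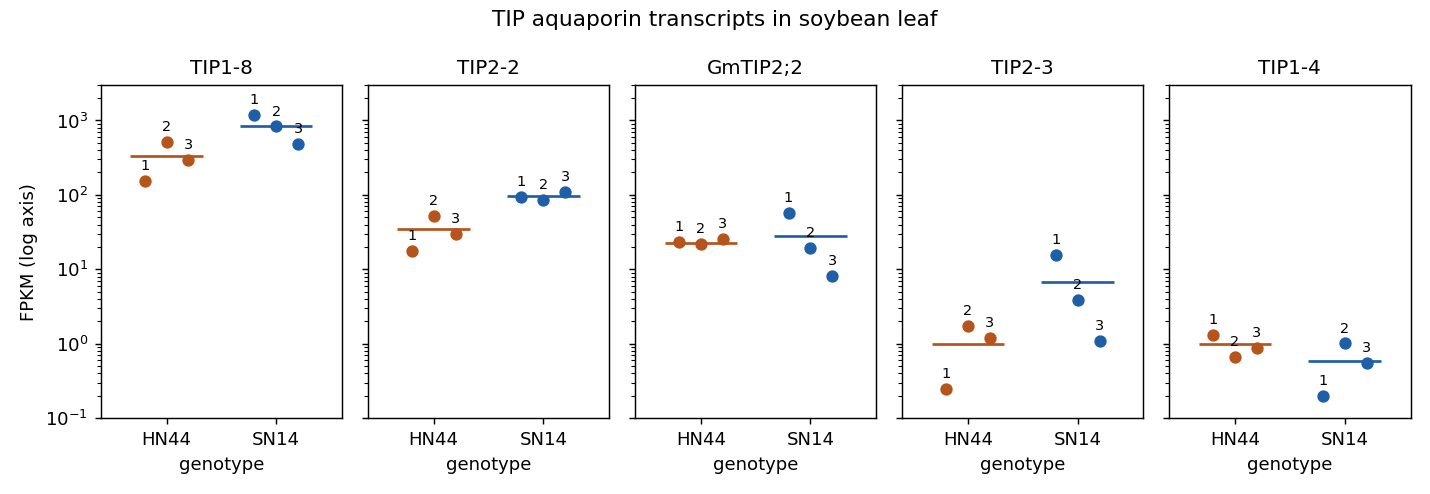
FPKM of the 5 TIP genes on a log axis, 1 panel per gene in order of mean level, with 1 point per library labelled by its replicate number. Horizontal lines are the mean of HN44-1 and HN44-2 and the mean of the 3 SN14 libraries; TIP2-2 is the gene whose HN44 points (17.8 to 52.2 FPKM) all lie below its SN14 points (84.8 to 109 FPKM).

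GmTIP2;2 showed no separation of the genotypes. It stood at 23.4, 22.0 and 25.6 FPKM in the 3 HN44 libraries in order, within 1.16 times of each other, and at 56.9, 19.3 and 8.18 FPKM in SN14-1, SN14-2 and SN14-3. The HN44 values all lay inside the SN14 range, which spanned 6.96 times. The SN14 spread, taken as the ratio of highest to lowest after adding 1 FPKM, was larger than that of 98.2% of tested genes, whereas the HN44 spread exceeded that of 24.2%. The log2 fold change was 0.16 ± 0.60 (SE; 95% interval -1.27 to 1.58; limma adjusted p = 0.884, and 0.955 without HN44-3). Its sign depended on SN14-3 and on the scaling: without that library it was -0.48, without SN14-1 it was 0.85, and after median-of-ratios scaling it was -0.02.

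TIP2-3 was scarce in HN44 and uneven in both genotypes. It stood at 0.25 FPKM in HN44-1, 1.74 in HN44-2 and 1.19 in HN44-3, and at 15.5, 3.84 and 1.10 FPKM in SN14-1, SN14-2 and SN14-3. The groups overlapped at SN14-3, and the SN14 mean of 6.80 ± 7.62 FPKM (SD, n = 3) rests largely on SN14-1. Its spread was larger than that of 92.5% of tested genes in HN44 and of 98.8% in SN14. The log2 fold change was -1.49 ± 0.72 (SE; 95% interval -3.19 to 0.21; limma adjusted p = 0.227, and 0.431 without HN44-3), and it moved to -0.70 without SN14-1 and to -2.19 without SN14-3.

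TIP1-4 was close to the lower end of measurement in both genotypes. It stood at 1.32 FPKM in HN44-1, 0.66 in HN44-2 and 0.89 in HN44-3, and at 0.20, 1.01 and 0.55 FPKM in SN14-1, SN14-2 and SN14-3. Only 2 libraries reached 1 FPKM, so it failed the filter of at least 1 FPKM in at least 3 libraries and was not part of the fit. The difference of the group means was 0.32 on the log2(FPKM + 1) scale, with a two-sided exact permutation p of 0.3, where 0.1 is the smallest that 3 libraries against 3 can give. That test counts HN44-3 as a separate library, and without it the difference was 0.34.

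Of the 5 genes 4 passed the filter, and none passed an adjusted p of 0.05 in limma, where 3.78% of the 27140 tested genes did (1025 genes, with 150 genes or 0.553% without HN44-3); 1.44% of tested genes were called lower in HN44. The 1025 calls were 633 higher and 392 lower in HN44, a split that became 458 and 504 after median-of-ratios scaling. Unadjusted p-values in limma were 0.0033 for TIP2-2 and 0.024 for TIP1-8; 27.3% of tested genes had an unadjusted p under 0.05, and 8.59% did so with a lower value in HN44. In the limma fit without HN44-3 the 2 p-values were 0.0114 and 0.0507. There 3830 of the 27140 tested genes had an unadjusted p under 0.05, against 7419 with 6 libraries. Over the whole set of tested genes the median log2 fold change was 0.17, and median-of-ratios scaling brought it to 0.02. TIP2-2, TIP2-3 and TIP1-8 lay below it, with negative values under every scaling run and with each library left out in turn, and GmTIP2;2 lay at it. In these whole-leaf samples, fewer cells of a type and less RNA per cell cannot be told apart.

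**Figure D2:**
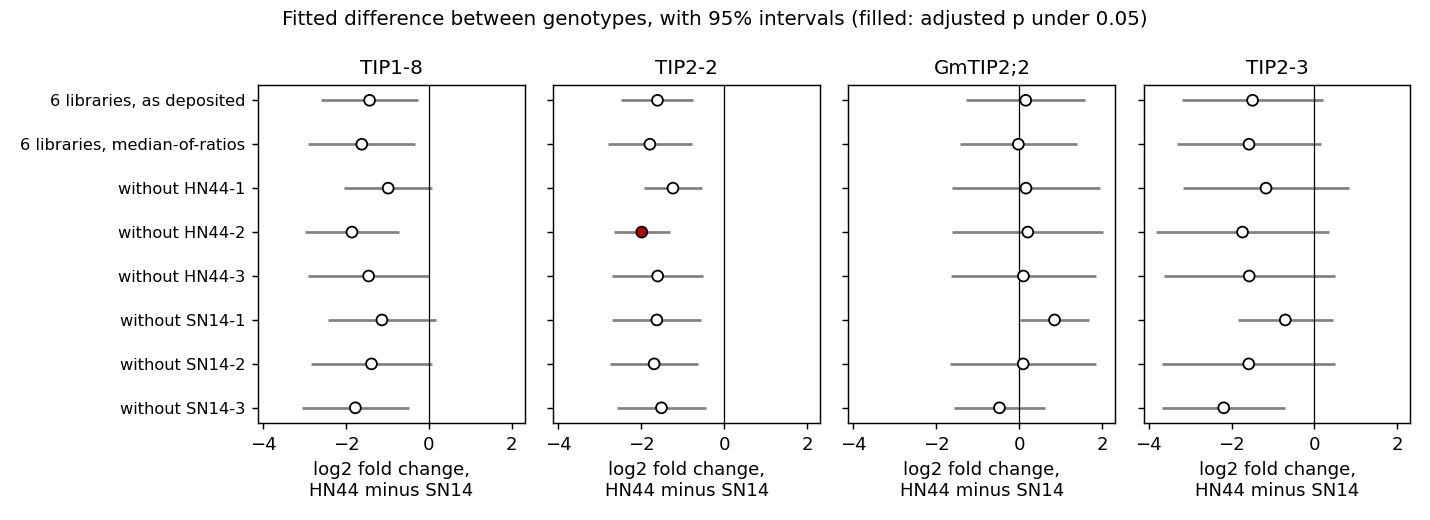
Fitted log2 fold change (HN44 minus SN14) of the 4 tested TIP genes, with all 6 libraries unscaled, with median-of-ratios scaling, and with each library left out; bars are 95% intervals from limma. The 1 filled point, an adjusted p under 0.05, is TIP2-2 without HN44-2; the estimates of GmTIP2;2 lie on both sides of 0, from -0.48 to 0.85.

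In order of mean level over the 6 libraries the genes were TIP1-8 (577 FPKM), TIP2-2 (64.4), GmTIP2;2 (25.9), TIP2-3 (3.93) and TIP1-4 (0.77). FPKM is scaled per length, so levels can be set beside each other. TIP1-8 lay above TIP2-2 without overlap in both genotypes, by 4.45 to 12.7 times within a library. TIP2-2 and GmTIP2;2 overlapped in HN44 and not in SN14. In HN44-1 TIP2-2 was the lower, at 0.758 times GmTIP2;2, and in the other libraries it was the higher, from 1.18 times in HN44-3 to 13.3 times in SN14-3. TIP2-3 lay below GmTIP2;2 in every library, at 0.0107 to 0.271 times its level. TIP2-3 and TIP1-4 overlapped in HN44 and not in SN14.

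The genes also differed in which libraries were high. Likeness was measured as the root mean square difference between genes in log2(FPKM + 1), each centred on its own mean over the 6 libraries, so that 0 is the same profile. TIP1-8 and TIP2-2 differed by 0.47, the smallest value among the 10 pairs. Both were lowest in HN44-1 and higher in HN44-2 than in HN44-3, and they parted in SN14-3, where TIP2-2 was at its highest and TIP1-8 at its lowest for that genotype. TIP2-3 was 0.54 from TIP1-8 and 0.90 from GmTIP2;2, and all 3 were highest in SN14-1 and, within SN14, lowest in SN14-3. TIP1-4 and TIP2-3 were the pair farthest apart, at 1.43.

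**Figure D3:**
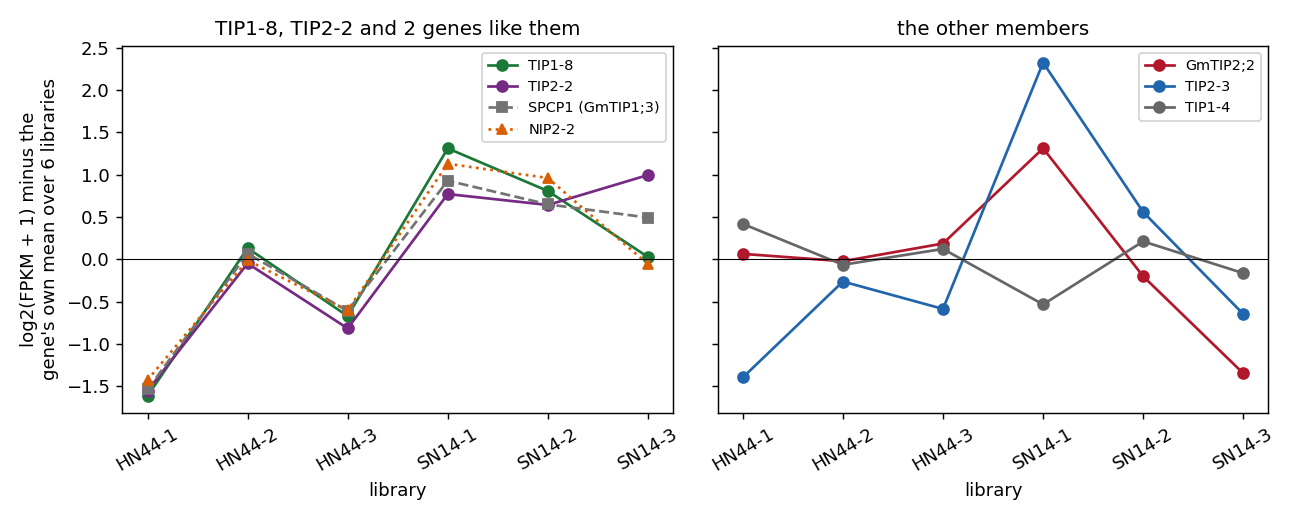
Level in each library as log2(FPKM + 1) minus the gene's own mean, for TIP1-8, TIP2-2, SPCP1 and NIP2-2 (left) and for GmTIP2;2, TIP2-3 and TIP1-4 (right); lines join the libraries of a gene and imply no order. The 4 genes on the left and TIP2-3 are lowest in HN44-1; TIP1-8, SPCP1, NIP2-2, TIP2-3 and GmTIP2;2 are highest in SN14-1, and TIP2-2 in SN14-3.

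Among 1134 genes with a symbol and a mean of at least 5 FPKM, the profiles nearest to TIP1-8 over the 6 libraries included 2 more aquaporins. NIP2-2, a silicon channel gene of soybean, was 0.144 from TIP1-8 on this scale, at 6.66, 19.4 and 12.6 FPKM in the HN44 libraries in order and 44.0, 39.0 and 18.8 FPKM in those of SN14. GME1 followed at 0.256, and SPCP1, which carries the TIP synonyms GmTIP1;3 and GmTIP1;7, at 0.258. The median distance of the 1134 genes from TIP1-8 was 1.11. Nearest to TIP2-2 were FAD2-2 at 0.165, for an oleate desaturase, SG-3 at 0.203, for a saponin glycosyltransferase, and BCH2 at 0.206. Nearest to TIP2-3 were GASA32 at 0.291, UGT79A6 at 0.328, for a flavonol glycoside glycosyltransferase, and the beta-amylase gene BMY1 at 0.336. BMY1 stood at 107 FPKM in SN14-1 and at 8.68 to 31.4 FPKM elsewhere. Nearest to GmTIP2;2 were ALDH3J2 at 0.230, PRX2 at 0.237 and the transcription factor gene DREB at 0.265. Nearest to TIP1-4, whose profile is nearly flat on this scale, were ALDH2B4 at 0.061, PHR13 at 0.074 and CHR2 at 0.0996. Apart from TIP1-8, no TIP gene described here had an aquaporin among its 3 nearest genes. How many of the 1134 genes are aquaporins was not counted. These distances describe 6 libraries, and HN44-3, whose values lie close to a weighted sum of the other HN44 libraries, may add little of its own.

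SPCP1 was also 0.236 from TIP2-2 on this scale. It stood at 157 FPKM in HN44-1, 479.95 in HN44-2 and 299.8 in HN44-3, and at 873, 719 and 645 FPKM in SN14-1, SN14-2 and SN14-3. The ratio of TIP1-8 to SPCP1 was 0.980, 1.08 and 0.992 in the HN44 libraries and 1.35, 1.15 and 0.749 in those of SN14. Reads may be divided between these TIP1 genes if their sequences are similar, which was not examined. Every HN44 library lay below every SN14 library for SPCP1, as for 2853 of the 27140 tested genes, and the reverse order held for 6335. The SPCP1 log2 fold change was -1.38 ± 0.39 (SE), and it did not pass in limma (adjusted p = 0.0922, and 0.304 without HN44-3).

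The 5 TIP genes together summed to 197 FPKM in HN44-1, 596 in HN44-2 and 355 in HN44-3, and to 1342, 939 and 602 FPKM in SN14-1, SN14-2 and SN14-3. The sums did not overlap, but HN44-2 and SN14-3 were nearly equal. All 11 TIP genes of the table, the 5 and 6 others, summed to 368 to 1082 FPKM in HN44 and 1258 to 2237 FPKM in SN14. TIP1-8 held 38.4% (SN14-3) to 52.6% (SN14-1) of that sum, and SPCP1, at 157 to 873 FPKM, made up most of the rest. The TIP sums and shares therefore describe mainly TIP1-8 and SPCP1, and neither gene passed in limma. The PIP sums overlapped, at 1369 to 1504 FPKM in HN44 and 1255 to 2247 FPKM in SN14. TIP genes held 19.8%, 39.98% and 29.9% of the summed FPKM of 55 aquaporin genes in HN44-1, HN44-2 and HN44-3, and 48.1%, 49.995% and 47.8% in SN14-1, SN14-2 and SN14-3. The share was almost level across SN14, and within HN44 it was lowest in HN44-1 and highest in HN44-2. The leaf marker sum also lay lower in every HN44 library. Of its 11 genes 8 had a log2 fold change below 0 (36% of all tested genes did), and none was at 0. None passed (3.78% of all tested genes did). RCABETA went the other way, at 7872 to 9877 FPKM in HN44 and 4121 to 6898 FPKM in SN14 (log2 fold change 0.83). RCA11 (0.45) and RCA03 (0.33) were also positive. The part of the leaf marker genes in the TIP values was not tested.

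**Figure D4:**
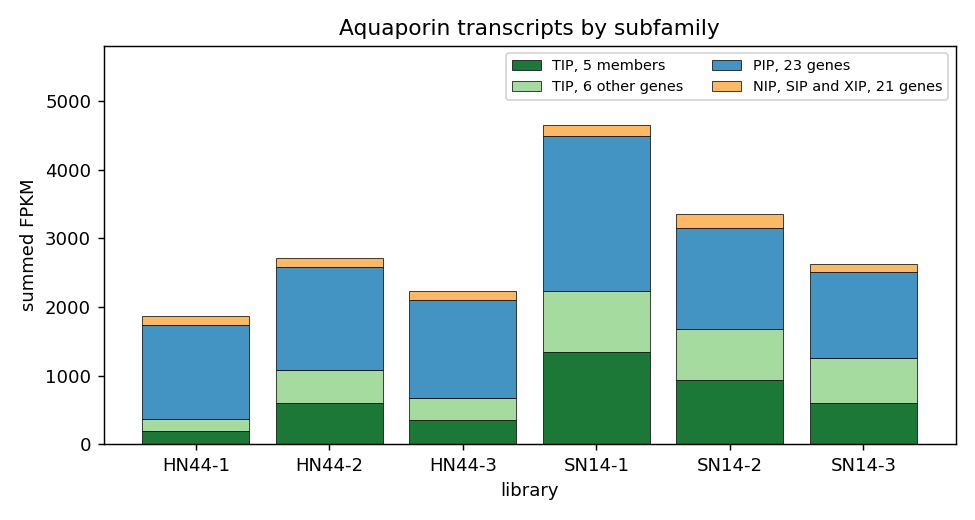
Summed FPKM of aquaporin genes in each library, stacked by subfamily (the 5 TIP genes described, the 6 other TIP genes, 23 PIP genes and 21 NIP, SIP and XIP genes). The PIP blocks overlap in height between genotypes (1255 to 2247 FPKM in SN14), while both TIP blocks together reach 368 to 1082 FPKM in HN44 and 1258 to 2237 FPKM in SN14.

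Beyond the 5, no other aquaporin passed an adjusted p of 0.05 in limma with 6 libraries or without HN44-3. Over all tested genes 3.78% passed with 6 libraries and 0.553% without HN44-3. Of the 6 other TIP genes 5 were tested. TIP4-2 (LOC100793258) passed the filter only through SN14, where it is the higher, so its negative value is not independent of the filter. It stood at 0.63 ± 0.19 FPKM (SD, n = 2) in HN44 and 1.51 ± 0.43 (SD, n = 3) in SN14. The log2 fold changes of the rest were -1.38 for SPCP1, -0.93 for TIP4-1, -0.68 for TIP2-4 and -0.31 for GmTIP1;6. Their unadjusted p-values in limma with 6 libraries were 0.0099, 0.027, 0.169 and 0.598. TIP4-1 stood at 4.63 ± 2.54 and 9.59 ± 3.54 FPKM. Over all tested genes 36% were negative and 27.3% had an unadjusted p under 0.05. Of 21 tested PIP genes 11 were negative and 10 positive (median -0.05), and 5 had an unadjusted p under 0.05, close to the share of all tested genes. The smallest were those of PIP2-1, at 1.47 ± 0.94 FPKM in HN44 and 17.2 ± 13.6 in SN14, PIP2-4, at 38.2 ± 0.06 and 74.4 ± 22.5, and PIP1-3, at 1.09 ± 0.95 and 3.23 ± 1.77. Of 12 tested NIP, SIP and XIP genes 7 were negative (median -0.20) and 6 had an unadjusted p under 0.05, among them SIP1-4, at 2.12 ± 0.56 and 4.33 ± 0.94 FPKM, NIP2-2, and SIP2-2, which was higher in HN44 at 8.12 ± 4.99 against 3.64 ± 0.998. Differences between these subfamilies were not tested.

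**Figure D5:**
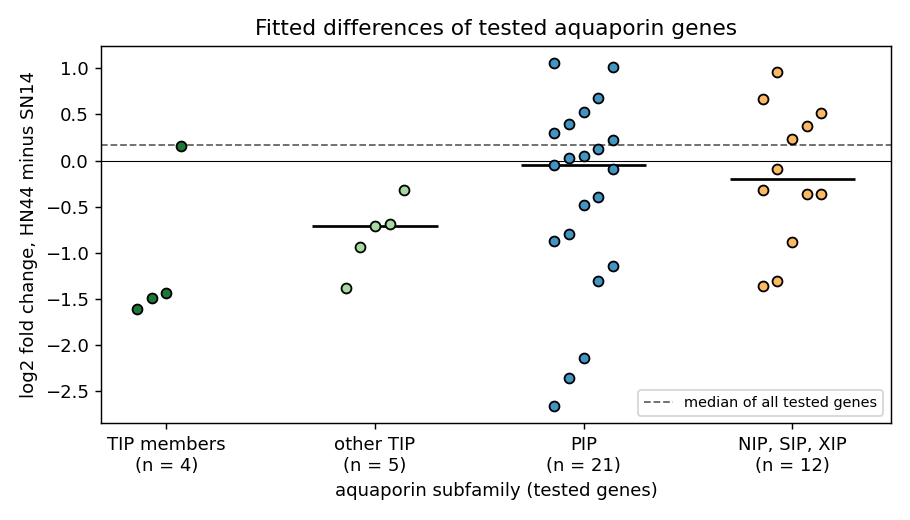
Log2 fold change (HN44 minus SN14, 6 libraries) of each tested aquaporin gene, by subfamily; short lines are medians of the lists and the dashed line is the median of all tested genes, 0.17. The 5 other TIP genes include TIP4-2, which passed the filter only through SN14 and whose own value, -0.71, is the median of that list. The rest of them lie from -1.38 to -0.31. The 21 PIP genes lie on both sides of 0, with a median of -0.05.

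Genes tied to vacuolar ion transport and to cell expansion were set beside the TIP genes. CLC1, a chloride channel gene, stood at 3.02 ± 2.17 FPKM (SD, n = 2) in HN44 and 7.29 ± 4.43 (SD, n = 3) in SN14, and NHX1, a sodium/proton exchanger gene, at 7.57 ± 1.80 and 8.69 ± 2.08; neither passed in limma (adjusted p = 0.181 and 0.643, and 0.429 and 0.789 without HN44-3). All 6 tested expansin and xyloglucan endotransglucosylase genes, whose products loosen or remodel the cell wall, had negative values (median -1.36), and none passed. EXP5A stood at 0.34 FPKM in HN44-1, 35.5 in HN44-2 and 13.6 in HN44-3, and at 96.4, 80.02 and 117 FPKM in SN14-1, SN14-2 and SN14-3 (limma adjusted p = 0.113, and 0.3005 without HN44-3). EXPB8 stood at 1.99 ± 0.74 against 7.04 ± 3.92 FPKM and XTH1 at 1.97 ± 2.37 against 22.5 ± 24.2. Of all tested genes, 36% had a negative log2 fold change and 3.78% passed in limma with 6 libraries.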

How the data were processed

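The authors deposited 1 table of FPKM per gene for 6 leaf libraries, and gene positions, per the file headers. RSEM 1.2.12, HISAT2 2.0.4, DESeq2 1.4.5 and Bowtie2 2.2.5 appear in the submitters' processing notes without their roles; RNA was extracted with Trizol, per the labels' protocols. Read totals are not given in the sources used here, so no counting interval is printed. Symbols, synonyms and chromosome numbers come from a RefSeq table of Glycine_max_v4.0, which matched 37544 of 38907 NCBI numbers.

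HN44 was compared with SN14 by limma 3.58.1 (variance trend, R 4.3.3) on log2(FPKM + 1), over the 27140 genes that reached 1 FPKM in 3 or more libraries, with Benjamini-Hochberg adjustment over all of them. The fit was also run on simulated data with independent libraries and the same spread for every gene. That run cannot show how the fit behaves when HN44-3 depends on the other HN44 libraries. Fold changes on this scale understate the change of low genes. Gene lists are patterns on symbols and synonyms, and the 3 genes of smallest p are named in each. The nodule pattern was corrected after it was seen to match LBD transcription factor genes, and the pattern for vacuolar proton pumps matched 0 genes. For likeness, the 3 nearest named genes are given for each TIP gene. The members and lists were chosen with earlier results of these data known. Alternatives were another pseudocount, no filter, 2 scalings, no variance trend, a replicate block and each library left out.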

Additional observations from a re-analysis of the deposited data

How the results depend on the processing

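No tested TIP gene passed under any alternative run, except TIP2-2 without HN44-2. The TIP2-2 log2 fold change was -1.99 to -1.23 with 1 library left out (adjusted p = 0.0311 to 0.254), that of TIP1-8 -1.86 to -0.98 and that of TIP2-3 -2.19 to -0.70. GmTIP2;2 changed sign after median-of-ratios scaling (-0.022) and ranged from -0.48 to 0.85 with 1 library left out. The TIP1-4 difference of 0.32 became 0.77 with a pseudocount of 0.1, which gives low values more weight, and was 0.13 to 0.51 with 1 library left out. The number of genes past the threshold, 1025, was 150 to 961 with 1 library left out (276 without HN44-1, 150 without HN44-3, 478 without SN14-3) and 15 without HN44-3 with the filter applied again. Same-numbered libraries did not deviate together (correlations of -0.22, -0.44 and 0.03 for replicates 1, 2 and 3). Pairs with different numbers ranged from -0.17 (HN44-1 with SN14-3) to 0.43 (HN44-1 with SN14-2). A replicate block gave 174 genes and adjusted p of 0.166 for TIP2-2, 0.242 for TIP1-8, 0.321 for TIP2-3 and 0.881 for GmTIP2;2. The log2 fold changes of these genes are the same with the block. Fits that keep HN44-3 treat it as a separate replicate, so their p-values may be too small.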
